A study of Caenorhabditis elegans with 2 samples.

Results

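The peaks described here were the regions of the authors' conservative peak list (the main list) that met at least 1 bp of a peak in the thresholded list of replicate 1 and also of replicate 2. Of the 2482 nuclear peaks of the main list, 1022 did so, a share of 41.2%. They were selected on the authors' peak calls, so their presence in both lists and their signals are given as a description only. The remaining 1460 main peaks consisted of 236 that met the replicate 1 list only, 504 that met the replicate 2 list only and 720 that met neither. The data came from chromatin immunoprecipitation and sequencing (ChIP-seq) with an antibody against GFP on whole Caenorhabditis elegans, a nematode, of the strain RW12207, in which genome editing had placed a TY1, EGFP and 3xFLAG tag in the ekl-4 locus. Animals were synchronised as starved first-stage larvae after bleaching and collected as young adults at 65 h, and chromatin was sonicated to 200 to 800 bp. There was 1 group with 2 biological replicates, all animals carried the tagged allele, and no comparison between conditions could be made. Whole animals were used, so a peak can come from any tissue.

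The worm protein EKL-4 resembles DMAP1, which in other animals belongs to the NuA4/TIP60 and SWR1 families of chromatin complexes. In yeast and mammals such complexes acetylate histones and exchange histone H2A for the variant H2A.Z at nucleosomes near the starts of active genes. The complexes are built of many shared subunits, so a peak of 1 subunit does not say which of them was present.

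The strongest regions show what the both-list peaks look like in sequence, so 151 bp around the summits of 8 of them are printed below from the RefSeq genome sequence of WBcel235, which has the chromosome lengths of ce11. The first 6 are among the 7 strongest members by the lower of their replicate signals, and the last pair are the strongest members at tRNA genes and at a snoRNA gene. Capitals mark an E2F-type site (TTCCCGC or TTCGCGC or TTGCCGC or TTGGCGC), the word CTGCGTCTC, the core of a heat shock element (GAANNTTC), or the core of the B box inside tRNA genes (GTTCGANNC), on either strand. A match describes letters and is not evidence that a factor binds there.
tasp-1, chrIII:10759193-10759343, plus strand: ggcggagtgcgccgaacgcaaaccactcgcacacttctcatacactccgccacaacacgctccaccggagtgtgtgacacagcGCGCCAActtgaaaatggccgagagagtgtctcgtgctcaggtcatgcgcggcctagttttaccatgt
rpl-3, chrIII:3867499-3867649, plus strand: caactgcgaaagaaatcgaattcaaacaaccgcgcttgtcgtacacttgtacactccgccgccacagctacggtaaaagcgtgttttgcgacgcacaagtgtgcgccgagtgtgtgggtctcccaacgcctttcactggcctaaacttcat
F44E5.4 and F44E5.5, chrII:11759414-11759564, plus strand: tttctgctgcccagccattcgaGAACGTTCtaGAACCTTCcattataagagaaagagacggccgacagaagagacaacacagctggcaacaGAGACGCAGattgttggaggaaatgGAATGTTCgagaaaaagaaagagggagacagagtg
cdc-48.1, chrII:10563490-10563640, plus strand: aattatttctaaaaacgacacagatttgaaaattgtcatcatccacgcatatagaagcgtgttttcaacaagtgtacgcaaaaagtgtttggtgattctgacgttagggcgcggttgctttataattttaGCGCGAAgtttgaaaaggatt
rpl-35, chrIII:7854643-7854793, plus strand: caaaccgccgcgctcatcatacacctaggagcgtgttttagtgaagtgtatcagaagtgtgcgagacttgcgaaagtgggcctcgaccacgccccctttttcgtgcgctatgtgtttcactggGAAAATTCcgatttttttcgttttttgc
intergenic peak on II, chrII:8787492-8787642, plus strand: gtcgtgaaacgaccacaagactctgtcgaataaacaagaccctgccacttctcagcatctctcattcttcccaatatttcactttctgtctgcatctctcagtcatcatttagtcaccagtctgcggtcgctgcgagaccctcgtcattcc
pair of tRNA genes on X, chrX:9743579-9743729, plus strand: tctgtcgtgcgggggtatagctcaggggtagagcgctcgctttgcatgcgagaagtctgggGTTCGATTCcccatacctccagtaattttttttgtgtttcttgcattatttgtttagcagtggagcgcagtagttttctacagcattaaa
snoRNA gene ZK994.7, chrV:8500491-8500641, plus strand: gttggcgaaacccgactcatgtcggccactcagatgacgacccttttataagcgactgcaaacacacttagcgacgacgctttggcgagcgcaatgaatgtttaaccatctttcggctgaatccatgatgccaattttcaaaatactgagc

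An E2F-type site lay in the printed windows of tasp-1 and cdc-48.1. The window between the heat shock protein genes F44E5.4 and F44E5.5 held 3 heat shock element cores and 1 copy of CTGCGTCTC. The tRNA window held 1 B box core and the rpl-35 window 1 heat shock element core. None of these 4 patterns was found in the 151 bp of rpl-3, of the intergenic peak on II or of ZK994.7.

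The region at tasp-1, which encodes a threonine aspartase, had the highest member signals, 604.9 in replicate 1 and 671.5 in replicate 2, and its main-list signal of 1258.5 was the highest of all main peaks. Its summit lay at -39 bp from the gene start, where negative distances are upstream. The signal is the strength that the authors' caller gave a peak against the control, on a scale that is not stated. The region at rpl-3, a large ribosomal subunit protein gene, had signals of 534.5 and 636.4 in replicates 1 and 2. Its summit lay at -280 bp. Between F44E5.4 and F44E5.5, a divergent pair of genes of the Hsp70 family, the signals were 420.3 and 418.0. The cdc-48.1 region, at a gene for an AAA ATPase that extracts ubiquitinated proteins, had 349.2 and 458.8. Replicate 2 was the higher in 3 of these 4 regions, and the replicates were nearly equal at F44E5.4 and F44E5.5.

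Further ribosomal protein genes followed among the 15 strongest members. These were rpl-35, with signals of 345.0 and 447.0 in replicates 1 and 2, rpl-20 with 343.1 and 422.1, and rpl-15 with 334.6 and 382.2. The rpl-20 summit was shared with Y17G9B.5 and the rpl-15 summit with K11H12.8, so the signal cannot be assigned to 1 gene of each pair. The region between drr-2, which encodes a protein related to the initiation factor eIF4H, and set-16, a histone methyltransferase gene of the MLL type, had 393.7 and 331.0. It was one of 3 of the 15 regions in which replicate 1 was the higher. The others were the region between F44E5.4 and F44E5.5 and that of cct-8, a subunit gene of the cytosolic chaperonin, which had 310.5 and 292.2 and shared its summit with Y55F3AR.2. The list of 15 was completed by mog-4, an RNA helicase gene of the splicing machinery, Y22D7AL.10, mtcu-2 and 3 regions without a coding gene start within 500 bp. One lay at chrII:8787442-8787706, within 500 bp of a pair of annotated pseudogenes, and another at chrIV:9196268-9196568, within 500 bp of the non-coding RNA genes C46C2.11 and C46C2.12. The first had signals of 383.5 and 397.6 and the second of 363.4 and 395.5, levels like those of the ribosomal protein genes named here. The target gene itself, ekl-4, also had a both-list region. Its signals were 102.4 and 138.6, and its summit lay at -147 bp from the start of ekl-4 and -250 bp from that of rps-20.

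Across all 1022 members the replicate signals rose and fell together. The strongest peak over each region in the ranked lists, which also hold peaks outside the thresholded lists, had a median signal of 71.5 in replicate 1 and 91.7 in replicate 2. The other values here use the strongest thresholded peak over each region. Spearman's rho between the replicates was 0.682 and Pearson's r of the log2 signals was 0.803, over 1022 regions that share their 2 libraries and were chosen for being called in both. Replicate 2 was the higher in 829 members (81.1%) and replicate 1 in 193. The median ratio of replicate 2 to replicate 1 was 1.26, with quartiles of 1.06 and 1.53. The replicate summits lay a median of 22 bp apart, and 807 members (79.0%) had them within 50 bp. The largest distance between them was 258 bp.

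**Figure D1:**
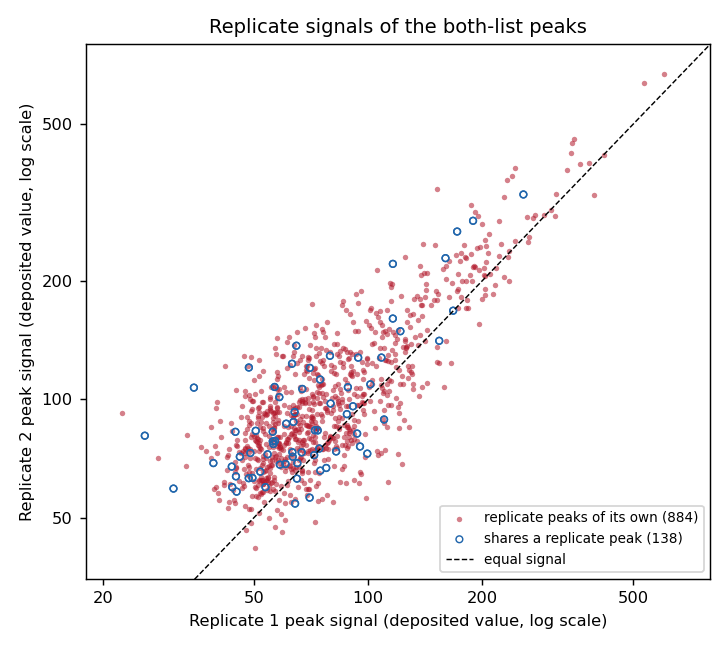
Each point is 1 of the 1022 both-list peaks, with its replicate 1 signal on the x axis and its replicate 2 signal on the y axis, both as deposited and on log scales, and the dashed line marks equal signal. Most points, 829, lie above the line, and the 138 open circles are members that share a replicate peak with another member.

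The largest ratio of replicate 2 to replicate 1, 4.10, was at tag-115 and rpl-12, with signals of 22.5 in replicate 1 and 92.1 in replicate 2, where the thresholded replicate 1 peak covered 87 bp. Another ranked replicate 1 peak over the same region had a signal of 42.5. Both members at mstr-1 had 25.8 and 80.9, because they met the same pair of replicate peaks. At the other end, hrpu-1, a gene of the hnRNP U type, had 112.8 in replicate 1 and 61.7 in replicate 2, a ratio of 0.547. The gtsf-1 region, at a gene of small RNA pathways, had 122.7 and 68.6. The replicate 1 signal was the higher in these last regions.

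Sharing of replicate peaks was not rare. The 1022 members met 953 different replicate 1 peaks and 953 different replicate 2 peaks, and 138 members shared at least 1 with another member. The main-list signal had a median of 98.7 in these 138 and of 165.3 in the other 884. In general the main signal was close to the sum of the replicate signals, with a median ratio of 1.00 (quartiles 0.956 and 1.04). It was below the stronger replicate signal in 62 members, of which 61 shared a replicate peak. The 4 weakest members had main signals of 2.26, 3.17, 3.85 and 4.40, and all 4 shared a replicate peak. In each of the 61, a member that met the same replicate peak had the higher main signal.

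Signal entered the choice through the peak calls, so the following values only describe it. The main signal of members had quartiles of 129.5 and 215.1 around a median of 160.0, against quartiles of 80.0 and 106.3 around 91.0 in all other main peaks. Members made up 98.8% of the strongest decile of the main list, 96.4% of the next, 78.2%, 56.9% and 35.9% of the 3 after that, and 12.1% or less of the 4 deciles that followed. The weakest decile, with signals of at most 70.9, held 22.9%, 57 members. At the threshold itself, members met replicate peaks with scores down to 831 in each replicate and overlaps down to 14 bp in replicate 1 and 6 bp in replicate 2. The score is the authors' reproducibility score, which reaches 1000. It did not set the lists alone, since some ranked peaks with a score of 830, the lowest in the lists, were not in them. Just outside, the highest score that a ranked peak of the missing replicate reached was 830 for peaks found in the replicate 1 list only and 829 for those in the replicate 2 list only. The median such scores were 538 and 492. Of the 720 peaks in neither list, 712 still met a ranked replicate 1 peak and 710 a ranked replicate 2 peak.

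**Figure D2:**
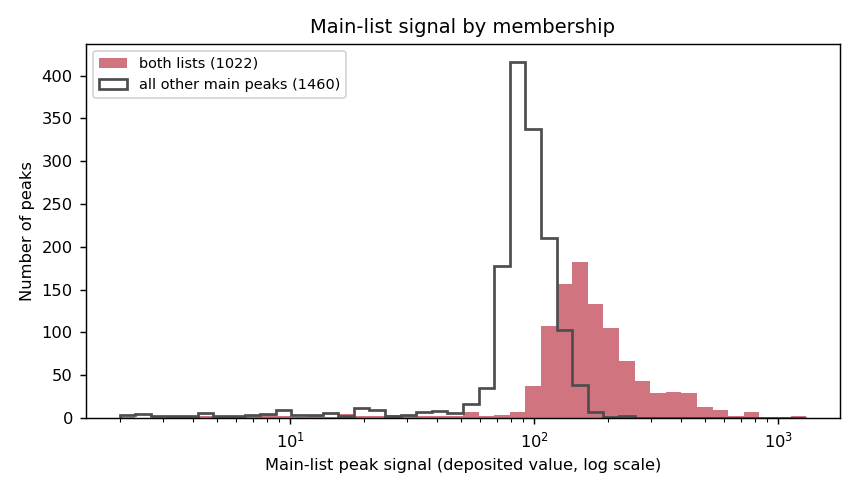
Number of peaks (y axis) by main-list signal (x axis, deposited value, log scale) for the 1022 both-list peaks (filled) and the 1460 other main peaks (outline). The filled distribution, with a median of 160.0, lies to the right of the outline, with a median of 91.0, and both have a thin tail of low signals.

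The strongest of the other main peaks mark what the choice left out. The region between his-67 and his-68, a pair of histone genes, had a main signal of 256.6 and a replicate 1 signal of 143.3. A ranked replicate 2 peak of signal 125.4 lay there too, but its score was 134 and it was not in the replicate 2 list. The kin-14 region was of the same kind, with 99.1 in replicate 1 and a ranked replicate 2 peak of 131.9. A main peak near rpl-31 with a signal of 214.9 met neither list, and the nearest replicate 1 peak of the thresholded list was 3 bp away.

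Summits of both-list peaks lay at a protein-coding gene start, defined by the 5' ends of its transcripts with 500 bp on either side, in 526 of 1022 cases (51.5%, 95% Wilson interval 48.4 to 54.5). Among the other main peaks the count was 626 of 1460 (42.9%, 40.4 to 45.4). The difference was 8.59 percentage points, with a Newcombe interval of 4.60 to 12.5. These intervals cover counting error only, since peaks of 2 libraries are not independent replicates, and they are no test of the choice. The difference was 0.172 points when the other peaks were weighted to the members' signal deciles, and it was 3.70 points with the replicate 2 list alone as the rule (replicate 1 left out) and 11.0 with the replicate 1 list alone. The weighting by signal rests on few peaks, because the 2 strongest deciles held only 9 and 3 other peaks. In the 3 deciles with many peaks of each kind, the sixth to the eighth, the shares were 204 of 424 members (48.1%) and 138 of 320 others (43.1%). Signal was still unequal there, with 89, 141 and 194 members and 159, 107 and 54 others in the sixth, seventh and eighth. In the seventh the share was lower in members, 44.7% against 51.4%. It was higher in the sixth, 44.9% against 39.0%, and in the eighth, 52.1% against 38.9%.

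The side of the gene start differed more than the share. Members lay upstream of the nearest start in 425 cases (41.6% of all members), against 395 of the other main peaks (27.1%). The difference was 14.5 points (10.7 to 18.3), and it was above 0 under each of the 10 alternatives tried for it, between 6.44, with replicate 1 left out, and 16.5. Within the sixth to eighth deciles of signal the upstream share was 39.4% of members and 27.8% of others. By decile it was 34.8% and 21.4% in the sixth, 36.9% and 38.3% in the seventh, and 43.3% and 25.9% in the eighth. Downstream of the nearest start lay 9.88% of members and 15.7% of others. Of the summits at a gene start, 80.8% of the members' (77.2 to 83.9) and 63.1% of the others' (59.2 to 66.8) were upstream. The median distance was -162 bp for members and -75 bp for others. Taking the members' summits from replicate 1 or from replicate 2 gave medians of -160 and -167 bp.

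**Figure D3:**
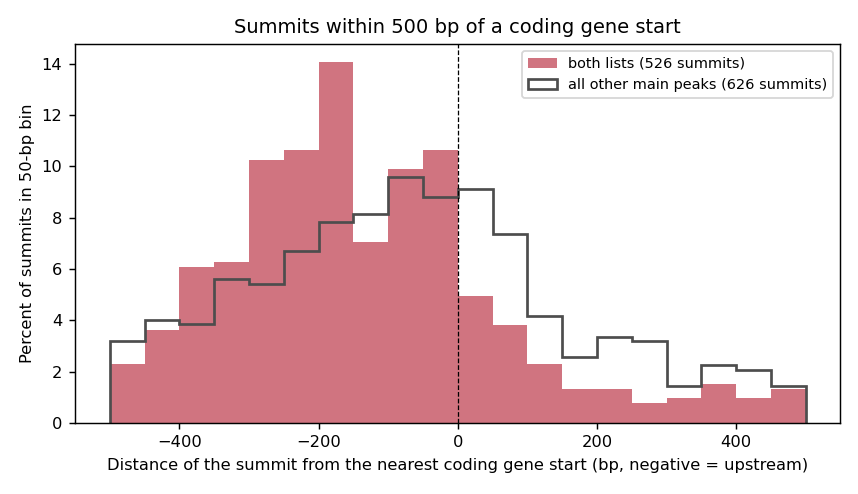
Percent of the summits within 500 bp of a coding gene start (y axis) in 50-bp bins of distance from that start (x axis, negative is upstream), for 526 both-list summits (filled) and 626 other main summits (outline). Both-list summits crowd upstream, 80.8% of them, and the outline reaches further into the gene.

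Members also fell outside coding genes more often. Intergenic here means outside protein-coding genes, so summits in RNA genes or pseudogenes outside them are counted as intergenic. The summit was intergenic in 66.4% of members (63.5 to 69.3) and 49.8% of others (47.2 to 52.4), and in coding exons in 8.32% (6.78 to 10.2) and 18.8% (16.9 to 20.9). Introns held 18.5% of members and 22.3% of others. Over the same 10 alternatives the difference ran over 9.80 to 18.9 points for intergenic sequence (10.8 with replicate 1 left out). The 9.80 points were among peaks of at least median signal. For coding exons the difference was -10.5 points and ran over -13.2 to -1.85 points. It was -1.85 points with the others weighted to the members' signal deciles and -5.28 points among peaks of at least median signal. In the sixth to eighth signal deciles the shares were 62.7% of members and 57.2% of others for intergenic sequence, and 9.43% and 12.8% for coding exons. Of these deciles only the seventh went the other way, with 60.3% of members and 63.6% of others intergenic. In coding exons its shares were 10.6% and 6.54%. The median main signal of members was 139.3 in coding exons and 164.4 in intergenic sequence. A summit upstream of 2 genes on opposite strands, as in a shared promoter region, was found in 117 members (11.4%) and 78 others (5.34%). That difference of 6.11 points turned to -3.13 points with the others weighted to the members' signal deciles, was 2.57 points with replicate 1 left out, and in the sixth to eighth deciles the shares were 9.20% of members and 7.81% of others. No coding or RNA gene start lay within 500 bp of 351 members (34.3%) and 667 others (45.7%).

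**Figure D4:**
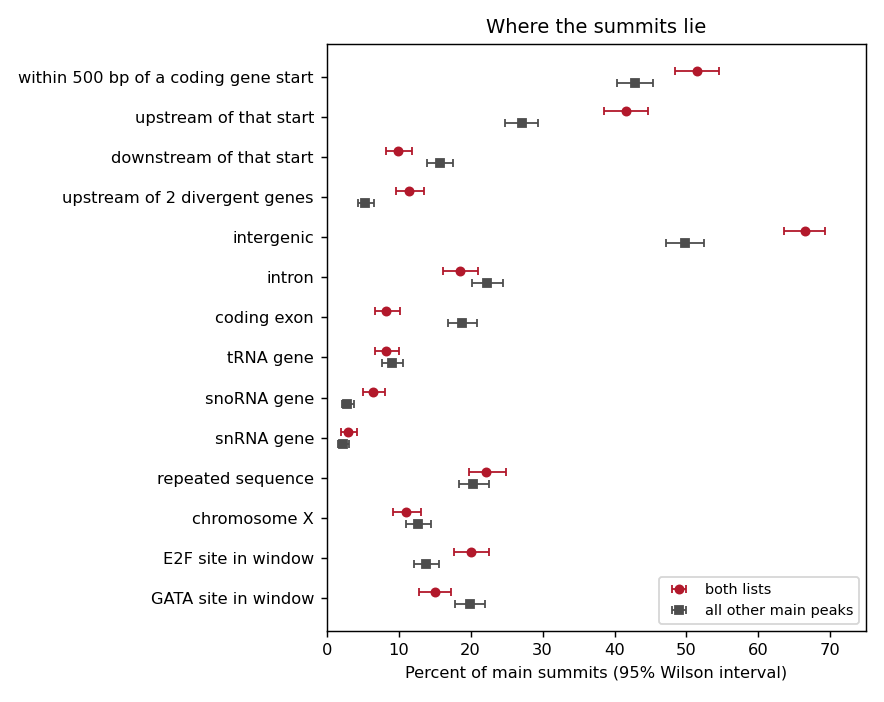
Percent of main summits (x axis, with 95% Wilson intervals) with each feature (y axis) for the 1022 both-list peaks (circles) and the 1460 other main peaks (squares). The groups stand furthest apart for intergenic sequence, 66.4% and 49.8%, and for summits upstream of a gene start, 41.6% and 27.1%.

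Chromosomes differed little. Members were 37.8% of the main peaks on X, the lowest share, and 43.1% on II, the highest, with 40.4% to 41.9% on the other chromosomes. The share of peaks on X was 11.1% of members and 12.7% of others, a difference of -1.68 points whose interval, -4.22 to 0.942, includes 0. It was -0.142 points with replicate 1 left out, -3.96 points with replicate 2 left out and 2.26 points with the others weighted to the members' signal deciles. The replicate lists differed here, since X held 5.93% of the peaks found in the replicate 1 list only and 13.9% of those in the replicate 2 list only. Members on X had a median replicate 2 to replicate 1 ratio of 1.36, the highest of the 6 chromosomes. The central one of 3 equal parts of each autosome held, in all, 38.7% of members and 36.2% of others, a difference of 2.51 points (-1.34 to 6.39).

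Among RNA genes, small nucleolar RNA (snoRNA) genes had the largest surplus of members before signal was taken into account. These RNAs guide the modification of ribosomal RNA. A snoRNA gene lay within 500 bp of 66 members (6.46%, 5.11 to 8.13) and 42 others (2.88%, 2.14 to 3.87), so 61.1% of the 108 main summits there were members, against the 41.2% of all main peaks. The difference of 3.58 points (1.91 to 5.41) was 0.385 points among peaks of at least median signal and turned to -2.46 points with the others weighted to the members' signal deciles, and in the sixth to eighth deciles the shares were 2.59% and 5.94%. Members at snoRNA genes were strong, with a median main signal of 190.8. The strongest was ZK994.7, inside an intron, with 239.5 in replicate 1 and 368.8 in replicate 2. The next was C51F7.4, with 186.7 and 312.7. Replicate 2 was the higher in both, and over all members at snoRNA genes the median ratio was 1.46.

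Transfer RNA genes, which RNA polymerase III transcribes, gave similar shares. They lay within 500 bp of 84 members (8.22%) and 132 others (9.04%), a difference of -0.822 points (-3.02 to 1.47). With the replicate 2 list alone as the rule (replicate 1 left out) it was 4.46 points, and with the replicate 1 list alone -2.50 points. The peaks found in 1 replicate list only differed from each other, with 4.24% (2.32 to 7.62) at tRNA genes in the replicate 1 list and 14.9% (12 to 18.3) in the replicate 2 list. Of 612 annotated tRNA genes, 96 had a both-list summit and 151 the summit of another main peak only. The median distance of these summits from the 5' end of the tRNA gene was 11.0 bp, inside the gene. The strongest, at the pair of tRNA genes WBGene00014333 and WBGene00014334, had signals of 130.4 and 116.1 in replicates 1 and 2. Many tRNA genes are near-identical copies, so reads there may have been assigned to the wrong copy.

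Of the other RNA classes, 30 members (2.94%) and 33 others (2.26%) lay at snRNA genes. The strongest were sls-2.1, with 257.0 and 331.6 in replicates 1 and 2, and sls-2.4, with 195.1 and 292.1. Both encode SL2 spliced leader RNAs, which are joined to the 5' ends of the downstream messages of operons. The sls-2.1 member shared a replicate peak with another member. MicroRNA genes had 12 members (1.17%) and 10 others (0.685%), and piRNA genes 15 (1.47%) and 37 (2.53%). Of 15363 annotated piRNA genes only 21 had a both-list summit, 0.137%. Long intergenic RNAs had 2 members, linc-78 and linc-91, and 6 others. None of the 20 annotated nuclear rRNA genes had a summit of any main peak, which by the limit of 3 counts of the total allows a share of up to 15%.

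A both-list summit lay within 500 bp of the start of 621 protein-coding genes, 3.11% of the 19973 annotated, and 661 more had the summit of another main peak only. Thus 48.4% of the genes with any main summit had a both-list one. Both ribosomal subunits were far above the background of 3.11%. Of 49 large subunit protein genes, 19 (38.8%, 26.4 to 52.8) had a both-list summit and 8 another main summit only. Of 31 small subunit protein genes, 12 (38.7%, 23.7 to 56.2) had one and 6 another only. With a window of 250 bp the counts were 7 and 4 genes, of 381 coding genes in all. Among genes with any main summit, a both-list one was found at 70.4% (51.5 to 84.1) of the large subunit genes. For the small subunit genes it was 66.7% (43.7 to 83.7). That interval includes the 48.4% of all such coding genes, and the first lies above it. These shares were not matched for signal, which entered the choice, so they are no test. The both-list summits had a median main signal of 188.5 at large and 268.5 at small subunit genes, against 160.0 in all members. Behind rpl-3 and rpl-35, the strongest were rps-19, with 228.1 and 326.6 in replicates 1 and 2, and rps-1, with 176.0 and 235.3. The summit was shared with another gene at 7 of the 19 large and 8 of the 12 small subunit genes. It lay upstream of 16 of the 19 and 11 of the 12. By contrast, 3 of 66 mitochondrial ribosomal protein genes (4.55%, 1.56 to 12.5) had a both-list summit and 4 another main summit only. Among the 3 was mrpl-28 with 73.2 and 154.9, and the count was 5 with replicate 2 left out.

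Lists for other steps of protein synthesis and quality control differed in their shares. Translation initiation and elongation factors had 8 of 34 genes (23.5%, 12.4 to 40.0) and 3 with another main summit only, among them iff-2, the eIF5A gene, with signals of 163.2 and 225.3 in replicates 1 and 2, and eif-3.C with 172.9 and 208.2. Heat shock and chaperone genes had 10 of 29 (34.5%, 19.9 to 52.7), 2 with another only, and the highest median main signal of the lists with more than 1 gene, 398.2. Of these 10 genes, 8 shared their summit with another gene. With a window of 250 bp the counts were 4 for the chaperone genes and 4 for the translation factors. They were 3, 4 and 1 for the proteasome, respiratory chain and vacuolar proton pump lists that follow. Proteasome subunits had 4 of 33 (12.1%, 4.82 to 27.3) and more, 5, with another only, and rpn-3, a lid subunit gene, had 206.8 and 235.8. The aminoacyl-tRNA synthetases had 1 of 31 (3.23%, 0.572 to 16.2), close to the background, and 2 with another only. Respiratory chain and ATP synthase genes had 6 of 43 (14%, 6.56 to 27.3) and 5 with another only, led by cox-5A with 262.8 and 291.0, and vacuolar proton pump genes 5 of 21 (23.8%, 10.6 to 45.1) and 3 with another only, led by vha-1 with 186.3 and 206.9. A summit shared with another gene was also found at 4 of the 8 translation factor and 3 of the 4 proteasome genes. The same held for 3 of the 6 respiratory chain and 3 of the 5 vacuolar pump genes.

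**Figure D5:**
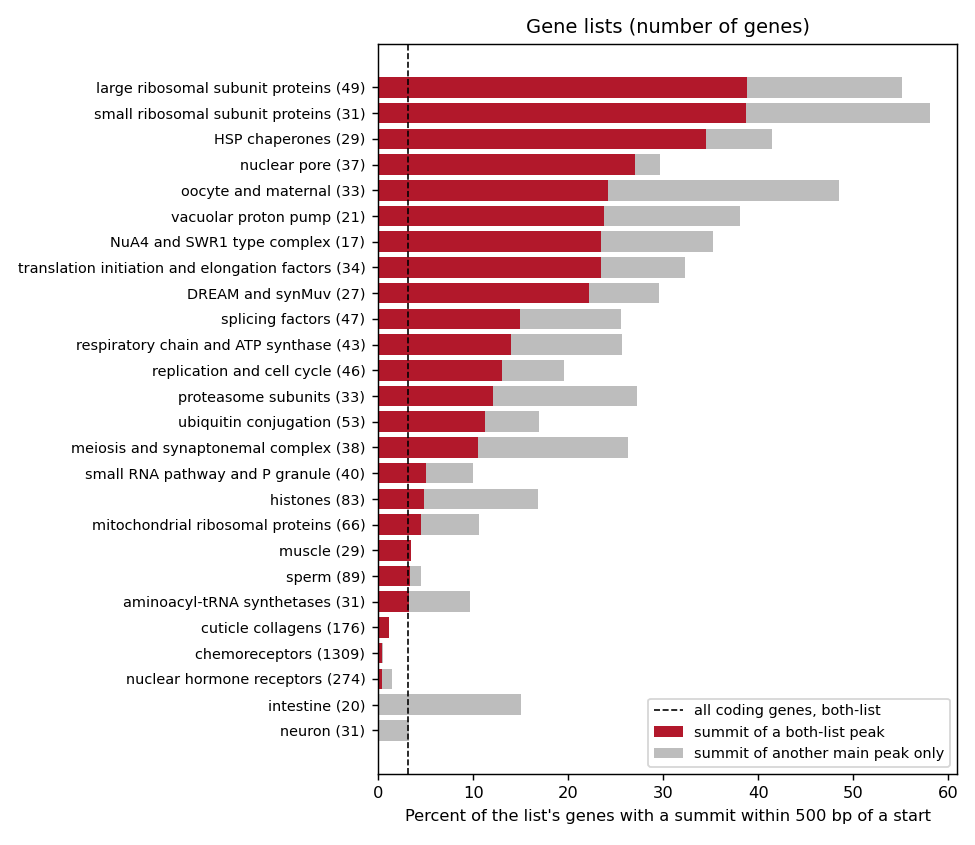
Percent of the genes of each list (y axis, number of genes in brackets) with a summit within 500 bp of a start (x axis): red for a both-list summit, grey for genes with another main summit only. The dashed line marks 3.11%, the share of all coding genes with a both-list summit, and the red bars of the ribosomal protein, chaperone and nuclear pore lists reach furthest beyond it.

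Nuclear pore and transport genes had 10 of 37 (27%, 15.4 to 43%), and of the 11 of them with any main summit only npp-14 had no both-list one. Of the 10, 6 shared their summit with another gene, and with a window of 250 bp the count was 4. The strongest were npp-3, a nuclear pore protein gene, with 201.7 and 207.0 in replicates 1 and 2, and imb-3, an importin gene, with 124.0 and 109.2. Genes of the NuA4 and SWR1 type complexes had 4 of 17 (23.5%, 9.56 to 47.3) and 2 with another main summit only. All 4 shared their summit with another gene, so no signal can be assigned to the complex gene alone. They included epc-1, the Enhancer of Polycomb relative, with 217.0 and 215.7, and htz-1, which encodes H2A.Z, with 127.9 and 121.4. Genes of the DREAM complex and of the synMuv class, which repress transcription, had 6 of 27 (22.2%, 10.6 to 40.8) and 2 with another only. Their strongest were lin-53, a histone-binding protein gene, with 208.1 and 263.5, and lin-54, a DNA-binding subunit gene of DREAM, with 193.9 and 242.1. A summit shared with another gene was counted at 3 of these 6 genes. Replication and cell cycle genes had 6 of 46 (13.0%, 6.12 to 25.7) and 3 with another only, led by pcn-1, the PCNA gene, with 234.8 and 200.4.

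Splicing factor genes had 7 of 47 (14.9%, 7.41 to 27.7) and 5 with another main summit only. They were led by snr-4, an Sm protein gene, with 139.9 and 248.1 in replicates 1 and 2. Ubiquitin conjugation genes had 6 of 53 (11.3%, 5.29 to 22.6) and 3 with another only. Oocyte and maternal genes had 8 of 33 (24.2%, 12.8 to 41%) and 8 with another main summit only. The strongest was cpg-1, an eggshell proteoglycan gene, with 175.7 and 181.9. Meiosis genes had 4 of 38 (10.5%, 4.17 to 24.1) and 6 with another only. Small RNA and P granule genes had 2 of 40 (5.00%, 1.38 to 16.5) and 2 with another only. Histone genes had 4 of 83 (4.82%, 1.89 to 11.7) and more, 10, with another main summit only. The histone count was 7 with replicate 1 left out, 11 with replicate 2 left out and 2 without summits in repeated sequence. With replicate 1 left out the meiosis count was 8, and with replicate 2 left out the small RNA and P granule count was 4. With a window of 250 bp the counts were 5 for splicing factor, 3 for ubiquitin conjugation and 7 for oocyte and maternal genes. They were 2 for meiosis, 0 for small RNA and P granule and 1 for histone genes. Summits were shared with another gene at 4 of the 7 splicing factor and 2 of the 6 ubiquitin conjugation genes. They were also shared at 3 of the 8 oocyte and maternal genes and at all 4 meiosis genes. Many histone genes are near-identical copies, so their reads may be split between copies.

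Of the lists for large gene families and differentiated tissues, those for nuclear hormone receptors, with 1 of 274 genes (0.365%, 0.0645 to 2.04), and for chemoreceptors, with 6 of 1309 (0.458%, 0.210 to 0.996), had intervals below the background of 3.11%. Another main summit only was found at 3 genes of the first list and 1 of the second. For the tissue lists and the cuticle collagens the interval or limit includes the background. No both-list summit lay at any of 31 neuron or 20 intestine genes, which by the limit of 3 counts of the total allows shares of up to 9.68% and 15%. Another main summit only was found at 1 neuron and 3 intestine genes, and 1 intestine gene was counted with either replicate left out. Of 29 muscle genes, 1 had one (3.45%, 0.611 to 17.2), act-2 with 77.9 and 57.1 in replicates 1 and 2. Cuticle collagens had 2 of 176 (1.14%, 0.312 to 4.05) and sperm genes 3 of 89 (3.37%, 1.15 to 9.45). The nuclear hormone receptor gene was nhr-47, with 126.7 and 168.7, and a second was counted with replicate 1 left out.

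The base composition of the windows differed slightly. The window reaching 100 bp to each side of the summit had a GC content of 44.0% ± 7.54 in members (SD, n = 1022) and 42.6% ± 7.40 in others (SD, n = 1460). The difference in means was 1.39 points (0.789 to 1.99), but it was 0.0233 points with 200 bp on each side, 0.662 points with the replicate 2 list alone as the rule (replicate 1 left out) and -0.784 points with the others weighted to the members' signal deciles. Repeated sequence, counted where over 10% of the 31-base words of the window occur elsewhere in the genome, was found in 22.2% of members and 20.4% of others, a difference of 1.80 points (-1.45 to 5.11). It was 8.88 points with the replicate 2 list alone as the rule, 0.790 with the replicate 1 list alone, and -12.6 points with the signal weighting. The weighted value rests on few peaks, since in the 2 strongest deciles 5 of 9 and 1 of 3 other peaks were in repeated sequence. In signal deciles 6 to 8 the shares were 23.3% of members and 29.7% of others.

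Of 11 sequence motifs counted in these windows on both strands, the E2F-type site stood apart most among those more common in members. It was in 205 members (20.1%, 17.7 to 22.6) and 13.8% of others, a difference of 6.29 points (3.30 to 9.35), and in 5.30% of equal windows around the starts of all 19973 coding genes. For every motif the gene start windows were centred on the 5' end of the gene and not on a summit. They were not matched to the members in position or GC content. With the others weighted to the members' GC content their share was 13.7%. The difference ran over 3.98 to 8.87 points in the 10 alternatives named above, the lowest with the replicate 2 list alone as the rule (replicate 1 left out) and the highest with the signal weighting. The weighted value rests on few peaks, since in the 2 strongest deciles 2 of 9 and 0 of 3 other peaks had the site. In the sixth to eighth signal deciles the site was in 18.4% of members and 14.7% of others. Within the sixth decile it was in 15.7% of members and 16.4% of others, within the seventh in 17% and 16.8%, and within the eighth in 20.6% and 5.56%. At gene starts alone it was in 25.3% of members and 16.6% of others. The word CTGCGTCTC was in 8.51% of members, 6.03% of others and 1.33% of all gene start windows. The GATA-type site (TGATAA or AGATAA) was less common, in 15% of members, 19.9% of others and 31.6% of all gene start windows. The tRNA B box core was in 8.22% of members and 7.74% of others. The heat shock element core, in 14.3% of members, 13.4% of others and 12.8% of all gene start windows, differed less.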

How the data were processed

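Peaks of 2 ChIP-seq libraries were called by the authors on ce11 against a control, per the accompanying text files, and scored by the irreproducible discovery rate. What is not given in the sources used here includes their aligner and caller. The signal, as deposited, is the authors' caller's strength of a peak, and the deposited score is the authors' reproducibility score, at least 830 in the thresholded lists, though some ranked peaks with that score are not in them. Another 16 per-library value columns of the 2 ranked replicate lists were left aside. The files give no read depth, and the 2 replicates limit the precision.

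Coordinates are 1-based on ce11 (WBcel235), and no peak lay beyond a chromosome end. Genes came from Ensembl release 115. The members, the 26 gene lists, the 11 motifs and the tests were chosen with earlier results of these data known. Of the genes listed by name, 5 were not in the annotation. The chemoreceptor list was corrected after its values were seen, to drop a gene of another family. The comparison within the sixth to eighth signal deciles was also chosen after seeing the data. Named genes are the 15 members with the highest lower-of-replicates signal, the 4 largest and 4 smallest replicate ratios, the strongest other main peaks, the weakest members, ekl-4 and, per list, the 2 strongest members and the strongest other. Some of these are given by name only or left out. Overlaps, shares, Wilson and Newcombe 95% intervals, GC and motifs were computed with Python 3.11.15, numpy 2.4.6, pandas 2.3.3 and scipy 1.17.1, and checked on simulated peaks. No test across peaks was run. Mitochondrial peaks were left out. Alternatives covered the overlap rule, the peak list, signal, windows, repeats and each replicate.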

Additional observations from a re-analysis of the deposited data

Results flagged for a closer look

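The thresholded list of replicate 2 held 16 mitochondrial peaks, with signals of 241.9 to 3214.8, while the thresholded list of replicate 1 and the main list held none. They stood out because they lie outside the nuclear peaks compared here.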

How the results depend on the processing

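The number of members ranged over 795 to 1013 under the rules for overlap, list, signal, repeats and shared replicate peaks, and was 1258 to 1526 with 1 replicate left out, within 1.5 times of 1022 throughout. The member minus other difference at gene starts was 0.172 points with the others weighted by signal decile, 4.32 with a window of 1000 bp and 3.70 to 11.0 with 1 replicate left out. On X it was 2.26 points with that weighting and -3.96 to -0.142 with 1 replicate left out. At tRNA genes it was -5.19 points among peaks of at least median signal, 1.69 against peaks in neither list and -2.50 to 4.46 with 1 replicate left out. In repeated sequence it was -12.6 with the weighting, -7.32 at or above the median signal, 7.49 against peaks in neither list and 0.790 to 8.88 with 1 replicate left out. For mean GC it was -0.784 with the weighting, 0.0233 with 200 bp on each side, 2.27 at gene starts alone and 0.662 to 1.23 with 1 replicate left out. The weighting also turned the differences between divergent genes to -3.13 points and at snoRNA genes to -2.46 points. All values with the weighting rest on few peaks, because the 2 strongest deciles held only 9 and 3 other peaks. Of the 9 and the 3, 1 and 1 lay between divergent genes, 2 and 0 at snoRNA genes and 5 and 1 in repeated sequence. An E2F-type site was in 2 and 0 of them. The other 51 values of these planned results stayed within the main interval or 1.5 times the main count. The causes were not tested. Without the 138 members that share a replicate peak (an alternative chosen after seeing the data), the differences of these results kept their sign. A window of 250 bp or 1000 bp, or another such alternative, moved 30 of 270 gene list counts by over 1.5 times. No paired analysis was possible because there was 1 group. The main limits are 2 libraries, unknown depth, no untagged control strain among the files used here, and a comparison between groups that the choice itself made unequal in signal.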
